A study of Homo sapiens with 6 samples.

Results

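The chromosomal passenger complex was followed through the transcripts of its 4 subunits: AURKB, INCENP, BIRC5 and CDCA8. They were chosen by symbol as the known parts of the complex, and all 4 were found among the 19863 rows of the count table. The cells were NGP, an established MYCN-amplified human neuroblastoma line, in 2 groups of 3 libraries each. The OTSSP167 group received that kinase inhibitor at 60 nM for 12 h, and the DMSO group received the same volume of solvent alone over the same time. OTSSP167 was first described as a MELK inhibitor, and the submitters call it a CAMKV inhibitor. Nothing in the labels tells whether replicate libraries stem from different cultures, and p-values therefore reflect the variation among these libraries alone, which could be technical. Levels are CPM, the counts of a gene relative to the counted reads of its library, scaled between libraries by TMM (a trimmed-mean scaling) and given as mean ± SD with n = 3.

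The passenger complex carries Aurora B, the mitotic kinase encoded by AURKB, to the places where it is needed during cell division. INCENP is the scaffold: its C-terminal end binds and activates Aurora B, and its N-terminal end holds survivin, the product of BIRC5, and borealin, the product of CDCA8. Survivin reads a mark that the kinase haspin places on histone H3, borealin binds shugoshins recruited by the kinase BUB1, and together they hold the complex at centromeres until anaphase, when it moves to the spindle midzone. There it serves cytokinesis, after correcting faulty kinetochore attachments earlier in mitosis. The subunit genes are known as late cell cycle genes, whose promoters often hold a CHR element (cell cycle genes homology region) bound by the MuvB complex and CCAAT boxes bound by NF-Y.

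Promoter windows from RefSeq (GRCh38.p14) were matched by symbol for AURKB, INCENP and CDCA8. No BIRC5 window was found, so that promoter was not searched. The 250 bases before the annotated start are shown for INCENP (chr11:62123761-62124010, plus strand) and CDCA8 (chr1:37692266-37692515, plus strand), because both windows hold the 2 motifs searched. They run 5′ to 3′ and end at the base before the start. Capitals mark TTTGAA, the core of the CHR element, and CCAAT or its reverse complement ATTGG. Both motifs were searched on both strands.
INCENP: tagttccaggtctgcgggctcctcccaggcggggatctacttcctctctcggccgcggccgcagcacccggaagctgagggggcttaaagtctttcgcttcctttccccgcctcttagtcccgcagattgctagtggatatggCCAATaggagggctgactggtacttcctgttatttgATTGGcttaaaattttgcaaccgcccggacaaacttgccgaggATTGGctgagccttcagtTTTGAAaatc
CDCA8: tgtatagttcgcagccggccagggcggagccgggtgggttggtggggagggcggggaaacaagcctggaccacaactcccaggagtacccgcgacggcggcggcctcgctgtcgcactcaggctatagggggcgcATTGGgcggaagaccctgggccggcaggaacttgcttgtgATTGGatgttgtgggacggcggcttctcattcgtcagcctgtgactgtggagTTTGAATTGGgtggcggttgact

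TTTGAA began 10 bases before the RefSeq start in INCENP and 23 bases before it in CDCA8. GENCODE release 29 starts these genes further upstream, by 38 bases for INCENP and 98 bases for CDCA8, so that TTTGAA lies inside both genes as drawn there. The INCENP window held 3 CCAAT boxes, which began 107, 71 and 28 bases before the RefSeq start. That of CDCA8 also held 3, at 115, 75 and 18 bases, and the last shares its first base with the end of TTTGAA. The INCENP box at 28 bases and the CDCA8 boxes at 75 and 18 bases also fall inside the GENCODE genes. Among all 35116 windows of this length, 13.3% held TTTGAA or its reverse complement TTCAAA, 32.0% held a CCAAT box and 4.69% held both. The 2 AURKB windows in the table belong to starts 351 and 375 bases inside the gene by the same annotation, further than the window is long, and are not printed. Each of them held 1 CCAAT box and no TTTGAA, which says only that those letters are not in these windows. The AURKB windows overlap, and the box is the same site in both.

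All 4 subunit transcripts were higher with OTSSP167, by 1.76- to 1.90-fold, and in each the 3 treated libraries lay above the 3 solvent libraries. By the quasi-likelihood test of edgeR, with p-values adjusted by the Benjamini-Hochberg method at 0.05, the 4 genes were called higher and none lower. Of all 14402 genes tested, 23.8% were called higher and 22.3% lower (46.1% in either direction). The treated libraries all lay above the solvent libraries in 30.8% of tested genes and all below them in 29.6%. The median log2 fold change was 0.87 over the 4 subunits and 0.01 over all tested genes. In these bulk samples, more cells in the phases of the cycle that make these transcripts and more RNA per cell cannot be told apart.

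AURKB, the catalytic subunit (chromosome 17, 8204733 to 8210600, minus strand), stood at 280.1, 273.8 and 260.8 CPM in OTSSP167 replicates 1 to 3 and at 143.3, 144.7 and 141.1 CPM in the DMSO replicates. The lowest treated library was 1.80 times the highest solvent library. AURKB had a log2 fold change of 0.92 with a standard error of 0.04 (adjusted p = 6.24e-05 in edgeR).

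BIRC5 encodes survivin, a small protein with a BIR domain that is also counted among the inhibitors of apoptosis. This gene was the most abundant of the 4 by CPM. It lies on chromosome 17 (78214186 to 78225636, plus strand), far from AURKB on the same chromosome. Its levels were 368.4, 385.5 and 378.3 CPM with OTSSP167 and 205.5, 214.9 and 201.9 CPM with DMSO. The groups were well apart, with spreads of 2.28% in the treated and 3.24% in the solvent libraries (coefficient of variation). In log2 terms BIRC5 was 0.86 higher with a standard error of 0.04 (adjusted p = 6.26e-05 in edgeR).

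CDCA8, the borealin gene (chromosome 1, 37692418 to 37709719, plus strand), gave the tightest values. They were 262.4, 259.3 and 263.1 CPM with OTSSP167 and 149.9, 148.1 and 148.9 CPM with DMSO. The coefficient of variation was 0.772% in the treated and 0.618% in the solvent libraries, no larger than the 0.822 to 1.20% that counting error alone gives at its counts. Its log2 fold change was 0.81 with a standard error of 0.03 (adjusted p = 3.92e-05 in edgeR).

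INCENP, the scaffold (chromosome 11, 62123973 to 62153163, plus strand), was also higher, but its treated libraries did not agree in size. It stood at 261.6, 168.1 and 161.1 CPM in OTSSP167 replicates 1 to 3, and at 107.0, 102.2 and 113.6 CPM in the DMSO replicates. The groups did not overlap, although replicate 1 was 2.43 times the DMSO mean where replicates 2 and 3 were 1.56 and 1.5 times it. The same library was not apart for the other subunits, at 1.96 times the DMSO mean for AURKB, 1.78 times for BIRC5 and 1.76 times for CDCA8. Counting error at these counts is 0.988 to 1.44%, beside a coefficient of variation of 28.5% in the treated and 5.31% in the solvent libraries. Among 2354 tested genes within 2-fold of the mean level of INCENP, its SD over the treated libraries was above that of 85.1%.

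For INCENP the log2 fold change was 0.87 with a standard error of 0.20 (adjusted p = 0.0184 in edgeR). Without OTSSP167 replicate 1 it was 0.61 and still passed (edgeR adjusted p = 0.00366), so the 4 genes were called with or without that library. INCENP lost its call when DMSO replicate 1, 2 or 3 was left out (edgeR adjusted p = 0.0580, 0.0626 and 0.0514), and its alternatives as a whole ran from 0.000551 to 0.141. Against a change of 1.5-fold (edgeR's glmTreat), AURKB, BIRC5 and CDCA8 passed and INCENP did not (adjusted p = 0.141). In that test 10.6% of all genes were called higher and 9.03% lower.

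**Figure D1:**
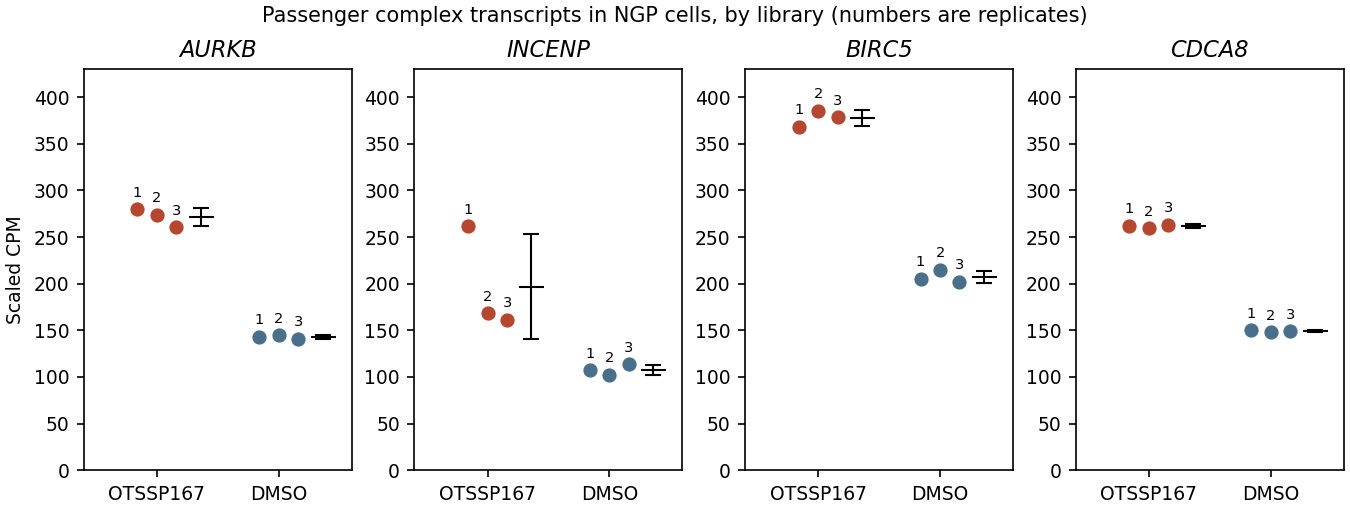
Scaled CPM of the 4 subunit transcripts in each library, OTSSP167 on the left of each panel and DMSO on the right. Points are libraries numbered by replicate, and the line and bar beside them are the mean ± SD (n = 3). In every panel the treated libraries lie above the solvent libraries, and INCENP replicate 1 with OTSSP167 (261.6 CPM) stands apart from replicates 2 and 3.

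The estimates moved little with the processing for AURKB (0.90 to 1.03), BIRC5 (0.83 to 0.96) and CDCA8 (0.80 to 0.91). These ranges are log2 fold changes over 15 other settings, in each of which the 3 genes passed as higher. For INCENP the range was wider, 0.61 to 1.00. Upper-quartile scaling gave the highest AURKB value, and it moved the median of all genes by 0.10 in the same direction.

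**Figure D2:**
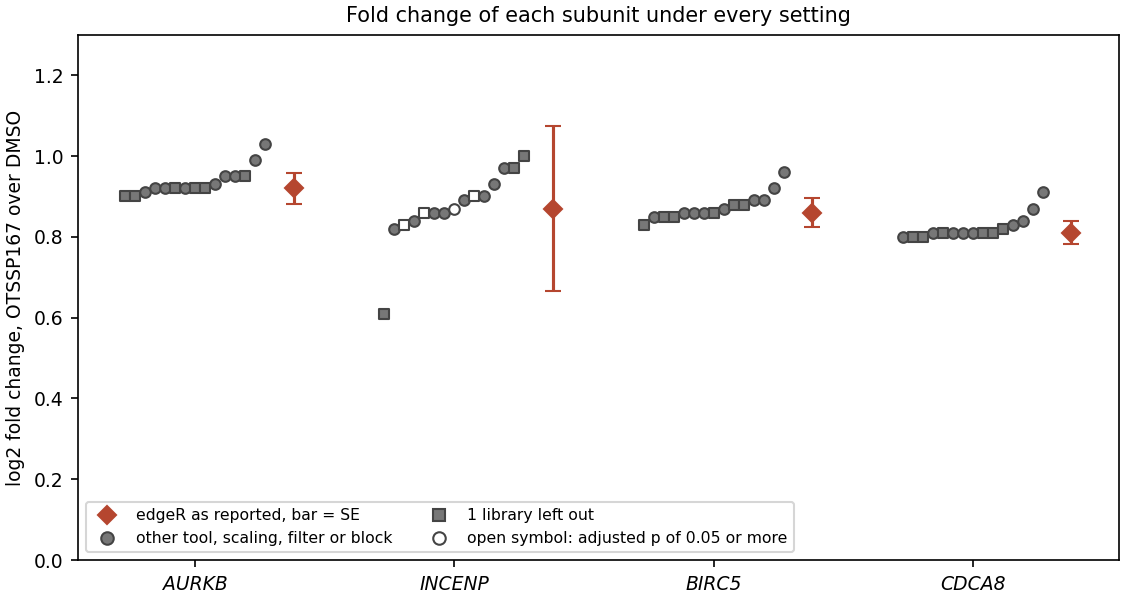
Log2 fold change, OTSSP167 over DMSO, of each subunit in edgeR as reported (diamond, bar = SE) and under 15 other settings (circles and squares, in order of size). Open symbols had an adjusted p of 0.05 or more, and all of them belong to INCENP; the low INCENP square at 0.61 leaves out OTSSP167 replicate 1.

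The 4 fold changes spanned 0.81 to 0.92 on the log2 scale and lay between percentiles 79.9 and 82.3 of all tested genes. A further description of the same closeness comes from ratios within a library, in which scaling between libraries cancels. Gene length does not cancel in a ratio itself, only in its difference between groups. The log2 ratio of AURKB to CDCA8 was 0.09, 0.08 and -0.01 in OTSSP167 replicates 1 to 3 and -0.06, -0.03 and -0.08 in the DMSO replicates. These groups did not overlap, and AURKB gained 1.08-fold on CDCA8. The exact 2-sided permutation test gave p = 0.1, the smallest that 3 against 3 libraries can give, and 0.6 adjusted over the 6 pairs.

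BIRC5 gained 0.05 on CDCA8 (mean log2 ratio 0.53 with OTSSP167 and 0.48 with DMSO, exact permutation p = 0.3) and AURKB gained 0.06 on BIRC5 (-0.48 and -0.54, exact permutation p = 0.3). In both pairs the groups overlapped. The 3 ratios with INCENP differed by -0.03 to 0.09 between groups, with SDs of 0.35 to 0.42 among the treated and 0.074 to 0.12 among the solvent libraries. Their direction depended on single libraries: AURKB over INCENP ran from -0.02 to 0.29 when libraries were left out, INCENP over BIRC5 from -0.27 to 0.10 and INCENP over CDCA8 from -0.20 to 0.16. With 3 libraries a group, none of the 6 ratios could pass, which does not show that the subunits changed alike.

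**Figure D3:**
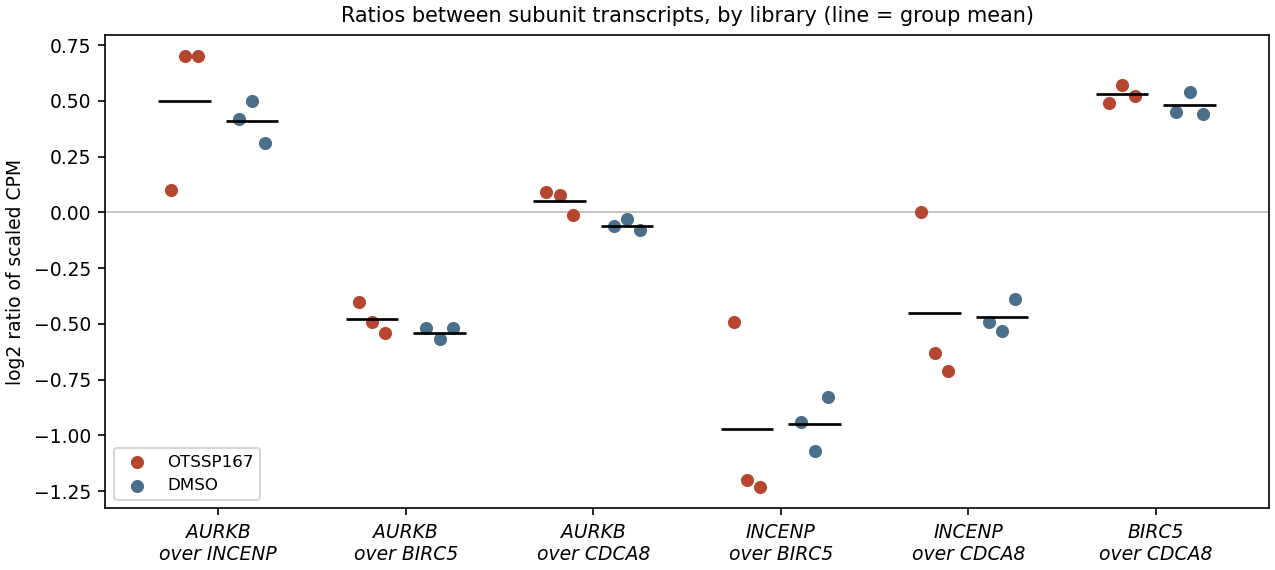
Log2 ratio of the scaled CPM of each pair of subunits in every library, OTSSP167 to the left of DMSO, with lines at the group means. The groups are separate only for AURKB over CDCA8, where the means are 0.05 and -0.06; the 3 pairs with INCENP are spread by OTSSP167 replicate 1.

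Per length of transcript the order of levels differed from the order by CPM. Using the APPRIS principal transcript of GENCODE release 29, AURKB (1227 bases) stood at 221.3 ± 8.01 CPM per kilobase with OTSSP167 and 116.6 ± 1.5 with DMSO. BIRC5 (2630 bases) followed with 143.5 ± 3.27 and 78.9 ± 2.56 CPM per kilobase. CDCA8 (2469 bases) had 106.0 ± 0.818 and 60.3 ± 0.373, and INCENP (3698 bases) had 53.2 ± 15.2 and 29.1 ± 1.55 CPM per kilobase. In each group every library kept this order, from AURKB down to INCENP, with no overlap between neighbours in it. With the union of annotated exons as length the order was the same, at 206.3, 118.4, 106.0 and 49.7 CPM per kilobase with OTSSP167. The BIRC5 level depends most on this choice, as its exons sum to 3186 bases.

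Of 22 genes for recruitment and docking of the complex, 6 were higher and 4 lower, shares near the 23.8% and 22.3% of all tested genes, with a median log2 fold change of 0.12. Haspin, listed as GSG2, places the histone H3 mark that survivin reads, and stood at 49.7, 48.5 and 50.9 CPM with OTSSP167 and 36.7, 35.9 and 34.8 CPM with DMSO (0.47 higher in log2, edgeR adjusted p = 0.00364). BUB1, the kinase whose mark recruits shugoshins, fell to 16.6, 37.8 and 23.4 CPM with OTSSP167, against 90.1, 92.2 and 120.3 CPM with DMSO (log2 fold change -1.96 with a standard error of 0.33, edgeR adjusted p = 0.00629). The 2 kinases of centromere docking moved in opposite directions, both without overlap between groups.

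The shugoshin genes, adaptors between the BUB1 mark and borealin, did not pass: SGOL1 had a log2 fold change of 0.31 (edgeR adjusted p = 0.303) and SGOL2 0.07 (0.421). Neither did PLK1, a kinase that works with the complex (0.03, edgeR adjusted p = 0.717), nor TTK, the checkpoint kinase MPS1 (0.35, edgeR adjusted p = 0.255). KIF20A, the kinesin that carries the complex to the midzone, was spread from 88.1 to 186.4 CPM with OTSSP167 and from 117.3 to 148.5 CPM with DMSO, and did not pass (0.13, edgeR adjusted p = 0.732). CCNB1, the mitotic cyclin whose kinase phosphorylates borealin and INCENP, was 0.48 higher (edgeR adjusted p = 0.000296), and CBX5, the heterochromatin protein HP1 alpha, 0.25 higher (edgeR adjusted p = 0.000166). RCC2, a nucleotide-exchange-factor-like protein also called TD-60, fell by 0.18 (edgeR adjusted p = 0.000451). KLHL13, a CUL3 adaptor that removes Aurora B from chromosomes, fell by 0.66 (edgeR adjusted p = 0.00311).

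Neither paralog of Aurora B was called. AURKA, the spindle pole Aurora kinase, stood at 53.3, 69.3 and 63.5 CPM with OTSSP167 and 59.5, 41.7 and 51.1 CPM with DMSO, groups that overlap (log2 fold change 0.29, SE 0.17, edgeR adjusted p = 0.212). AURKC, the germline paralog, was at 0 counts in the 6 libraries. TPX2, the activator of Aurora A, measured 117.8, 155.9 and 548.8 CPM with OTSSP167 and 160.1, 115.5 and 126.9 CPM with DMSO. Its log2 fold change of 1.03 (edgeR adjusted p = 0.230) came from OTSSP167 replicate 3, without which it was 0.03. The difference between the changes of AURKB and AURKA was not tested.

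Of 20 tested genes among these paralogs, their activators and the phosphatases that oppose Aurora B, 2 were higher and 2 lower (3 and 1 with upper-quartile scaling, 2 and 4 with library size only), with a median of 0.05. The phosphatase genes PPP1CB, a catalytic subunit of protein phosphatase 1, and PPP2R5C, a B56 subunit of protein phosphatase 2A, were 0.49 and 0.26 higher (edgeR adjusted p = 0.00763 and 0.00994). AJUBA, a LIM protein that binds Aurora A, fell by 0.60 (edgeR adjusted p = 0.0202) and PPP2CA, the catalytic subunit of protein phosphatase 2A, by 0.35 (edgeR adjusted p = 0.0390). The PPP2CA call was lost when any library but DMSO replicate 3 was left out (adjusted p = 0.0640 to 0.107, within 0.00472 to 1.00 over its alternatives). AJUBA lost its call without OTSSP167 replicate 3 (adjusted p = 0.0538) or DMSO replicate 2 (0.0557), within 0.000409 to 0.521 over its alternatives.

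Aurora B substrates had a median log2 fold change of 0.29, with 9 of 19 tested genes higher and 3 lower. TOP2A, the topoisomerase of mitotic chromosomes, stood at 1679.9, 1689.1 and 1693.9 CPM with OTSSP167 and 834.9, 844.5 and 851.5 CPM with DMSO. BUB1B, the checkpoint protein BUBR1, was 0.37 higher (edgeR adjusted p = 0.00104). KIF4A, a chromokinesin of the spindle midzone, fell by 0.65 (edgeR adjusted p = 0.000989) and STMN1, the microtubule-destabilising protein stathmin, by 0.50 (edgeR adjusted p = 0.000206). Some substrates rose and some fell.

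Other inhibitor of apoptosis genes and survivin partners gave 2 higher and 4 lower of 13 tested (4 and 2 with upper-quartile scaling), with a median of 0.02. NAIP, which carries BIR domains as survivin does, stood at 34.7, 37.3 and 31.3 CPM with OTSSP167 and 12.2, 12.6 and 12.7 CPM with DMSO (1.46 higher, edgeR adjusted p = 0.000303). NAIP has near-identical partial copies in the genome between which reads can be divided, so its value is uncertain. XIAP, the caspase inhibitor that survivin binds, did not pass (0.42, edgeR adjusted p = 0.130), and BIRC3 and BIRC7 were at 0 counts in the 6 libraries. HSP90AA1, a chaperone of survivin, fell by 0.67 (edgeR adjusted p = 1.51e-05) and XPO1, the exportin that carries survivin from the nucleus, by 0.15 (edgeR adjusted p = 0.00619). The XPO1 call was lost with upper-quartile scaling (adjusted p = 0.125, within 0.00236 to 1.00 over its alternatives).

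Among 17 regulators of late cell cycle transcription, 5 were higher and 3 lower, with a median of 0.11. The list holds MuvB and NF-Y genes and also E2F factors with their partners. FOXM1, a forkhead factor recruited to CHR promoters, stood at 185.3, 221.6 and 206.1 CPM with OTSSP167 and 78.2, 96.4 and 115.4 CPM with DMSO (log2 fold change 1.08, SE 0.16, edgeR adjusted p = 0.00372). MYBL2, the MuvB partner B-MYB, was lower, at 486.7, 502.9 and 472.4 CPM with OTSSP167 and 597.5, 586.0 and 590.5 CPM with DMSO (fell by 0.28, edgeR adjusted p = 0.00104). TFDP1, a dimer partner of E2F factors, fell by 1.52 (edgeR adjusted p = 0.000641), and RBBP4, a MuvB subunit, was 0.08 higher (edgeR adjusted p = 0.0132). Leaving out DMSO replicate 1 or 3 ended the RBBP4 call (adjusted p = 0.0510 and 0.0537, within 0.000445 to 1.00 over its alternatives). The count of genes higher in this list was 2 without DMSO replicate 1 or 3 and 3 without OTSSP167 replicate 2 or 3.

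Of 21 other G2/M genes, 5 were higher and 3 lower (9 and 2 with upper-quartile scaling), with a median of 0.10. Those called higher numbered 3 without DMSO replicate 2 or 3. CDC20, the activator of the anaphase-promoting complex, was 0.84 higher (edgeR adjusted p = 0.000101) and CKS2, a CDK subunit, 0.96 higher (edgeR adjusted p = 0.000108). CCNA2, the cyclin of S and G2 phase, fell by 0.53 (edgeR adjusted p = 0.00641) and HMMR, a spindle protein, by 0.67 (edgeR adjusted p = 0.000744). Against the background of 23.8% higher and 22.3% lower, the substrates (9 of 19 higher) had the largest share of genes called higher among these lists. The substrate count was 6 without OTSSP167 replicate 2 or without DMSO replicate 3. Against a change of 1.5-fold (glmTreat), 1 of the 19 was called higher, beside 10.6% of all tested genes.

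**Figure D4:**
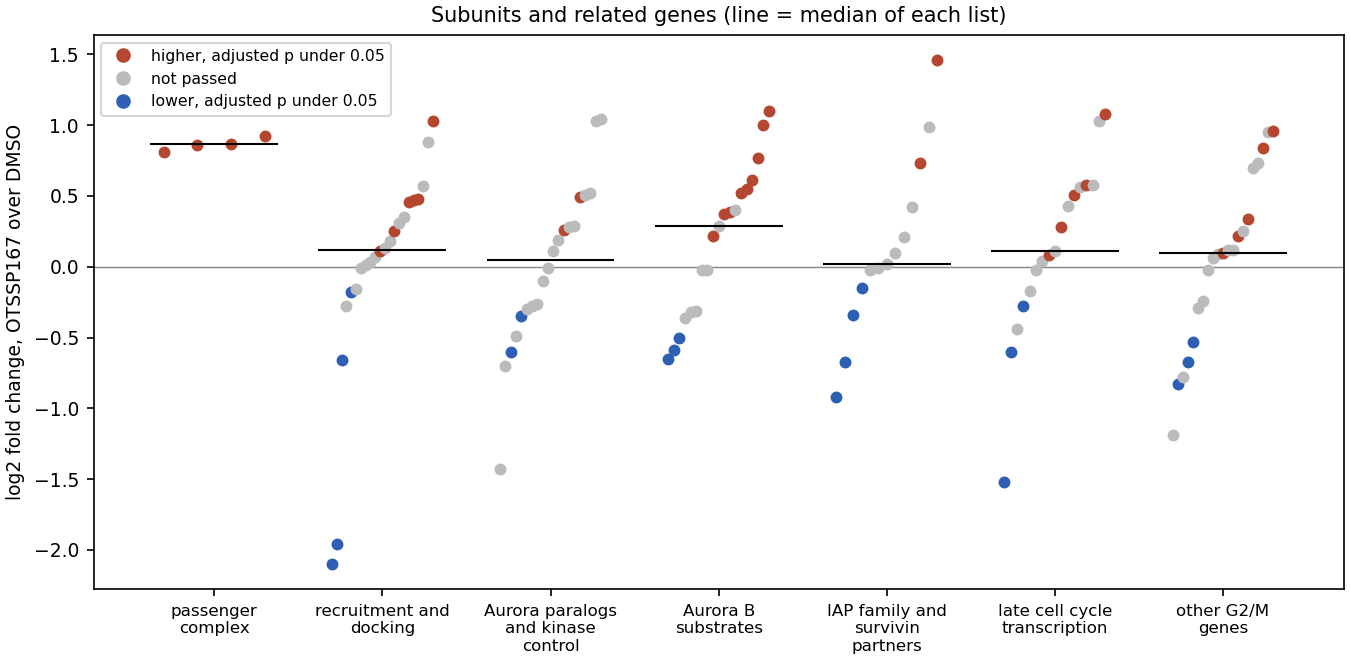
Log2 fold change, OTSSP167 over DMSO, of the 4 subunits and of every tested gene in 6 lists of related genes, each list in order of size with a line at its median. Red points passed as higher, blue points as lower and grey points did not pass; the subunits lie between 0.81 and 0.92, while each list holds genes called in both directions.

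Likeness of pattern was measured as the root mean square difference over the 6 libraries between log2(CPM + 0.5) values centred on the DMSO mean, among 9200 other genes of at least 10 CPM. The nearest gene was RPL27A for AURKB (0.0268), KANSL1 for INCENP (0.0853), RAB21 for BIRC5 (0.0142) and STK35 for CDCA8 (0.0210). Next came PDP1 and CCDC25 for AURKB, TLE3 and ZNF618 for INCENP, UQCRB and C19orf43 for BIRC5, and SGTA and HAUS2 for CDCA8. HAUS2 is a subunit of augmin, which builds spindle microtubules. Among the subunits themselves, CDCA8 ranked 35th from BIRC5 and 107th from AURKB, and BIRC5 ranked 42nd from AURKB. Ranks depend on the gene started from: AURKB ranked 169th from CDCA8. INCENP ranked 622nd from AURKB, while AURKB ranked 109th from INCENP at the same difference (0.216). In all, 341 of the tested genes (2.37%) had a log2 fold change between those of CDCA8 and AURKB.

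None of the 3 tested neighbours within 10 kilobases of a subunit gene was called. C1orf109 begins 168 bases from CDCA8 on the opposite strand and stood at 24.4, 18.8 and 22.8 CPM with OTSSP167 and 46.7, 52.8 and 16.1 CPM with DMSO (log2 fold change -0.81, edgeR adjusted p = 0.199). AFMID, 6484 bases upstream of BIRC5, had a log2 fold change of 0.22 (edgeR adjusted p = 0.402). EPHA10 beyond CDCA8 was under 2 CPM, and TMEM235 beyond BIRC5 had counts in 1 library. A lincRNA, AP002793.1, begins 205 bases from INCENP on the opposite strand and was not analysed here. In the annotation no gene overlapped a subunit gene.

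The libraries held 36401828 to 57460375 counts in the OTSSP167 group and 46230392 to 50810126 in the DMSO group. Of 11 sympathoadrenal neuroblastoma markers all were in the table, and their summed level was 6638.0 to 6771.4 CPM with OTSSP167 and 9822.2 to 10110.2 CPM with DMSO. MYCN made up most of both sums (4495.5 and 7544.3 CPM on average) and GATA3 went the other way (819.6 and 353.6 CPM), while TH was under 0.5 CPM in every library. Markers of other cell types were low: 4 Schwann and glial markers summed to 0.230 to 0.368 and 0 to 0.423 CPM, with CDH19 at 0. The 4 fibroblast markers summed to 6.10 to 10.6 CPM with OTSSP167 and 15.7 to 20.2 CPM with DMSO, nearly all COL1A1, with DCN at 0. The 3 immune markers, with CD3E at 0, reached at most 0.612 CPM and the 2 endothelial markers at most 0.102 CPM.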

How the data were processed

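TRIzol RNA went into SMARTer mRNA libraries, per the labels' protocols. What the authors deposited are whole-number counts per gene symbol for 6 libraries. The submitters' processing notes name FastQC 0.11.2, HISAT2 2.1.0, StringTie 1.3.5 and GRCh38.p13; the step that made the counts, the annotation and the strand setting were not given in the sources used here, so reads of overlapping or near-identical genes may be divided in an unknown way. Columns were matched by group and number in their names. Where a symbol was repeated (58 symbols), it stayed with its most counted row.

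Counts were tested with edgeR 4.0.16 in R 4.3.3 (filterByExpr, TMM, robust quasi-likelihood F test of treatment, Benjamini-Hochberg over 14402 genes, threshold 0.05). The test was also run on simulated counts with far fewer changed genes than were called here. That run cannot show how the test behaves at the share called here. A standard error is the log2 fold change over the square root of F. Alternatives were DESeq2 1.42.0, limma-voom 3.58.1, 3 scalings, 2 filters, glmTreat at 1.5-fold, a replicate block and each library left out. Coordinates and lengths are from GENCODE release 29 on GRCh38.

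Members and lists were chosen with earlier results of these data known. Besides members, the text names direct partners and, per list, up to 2 called genes of smallest p in each direction; some genes that rule takes are not reported here. C1orf109, AFMID, EPHA10 and TMEM235 are neighbours by rule, and BIRC3 and BIRC7 were named after their zero counts were seen.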

Additional observations from a re-analysis of the deposited data

How the results depend on the processing

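AURKB, BIRC5 and CDCA8 kept their direction and passed under each of the 15 alternatives. INCENP kept its direction under each, with 0.87 and no pass against 1.5-fold, and 0.61 to 1.00 with single libraries left out. It also did not pass when DMSO replicate 1, 2 or 3 was left out (edgeR adjusted p = 0.0580, 0.0626 and 0.0514). The cause was not tested. The count of all genes called was 2826 against 1.5-fold, a stricter test by construction, and 5540 to 5870 with single libraries left out. When libraries were left out, the change in log2 ratio ran from -0.02 to 0.29 for AURKB over INCENP, from -0.27 to 0.10 for INCENP over BIRC5 and from -0.20 to 0.16 for INCENP over CDCA8. Likewise KIF20A ran from -0.09 to 0.39 and PLK1 from -0.02 to 0.09. The labels do not say whether same-numbered libraries share more than a number. The correlation of their deviations from the group means was 0.0237 to 0.0360, and each library correlated best with its own number. Values this weak do not decide whether libraries were paired. With the replicate block, 4887 genes and all 4 subunits were called (AURKB 0.92, INCENP 0.84, BIRC5 0.86, CDCA8 0.81). Genes called higher among the late cell cycle regulators then numbered 1, those among the other G2/M genes 3, and genes lower among the Aurora paralogs and their control 1. XIAP passed with the block (edgeR adjusted p = 0.0343, within 0.0343 to 0.921 over its alternatives). AJUBA (edgeR adjusted p = 0.0568, within 0.000409 to 0.521) and RBBP4 (0.0532, within 0.000445 to 1.00) did not. A pseudocount of 0.5 turned none of the 6 ratios. Depth limits these values little, since counting error is at most 1.44% for the subunits. The spread between 3 libraries was larger than counting error for INCENP and BIRC5 in both groups and for AURKB with OTSSP167. For AURKB with DMSO it was close to counting error (1.29% beside at most 1.24%). For CDCA8 it was no larger than counting error (0.772 and 0.618% beside 0.822 to 1.20%).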
